A study of Homo sapiens with 12 samples.

Results

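The genes of chloride and bicarbonate transport in ductal cells described here were CFTR, SLC12A2, SLC4A2, SLC4A4, SLC26A6, CA2, CA12, ANO1 and SCNN1A. They were the 9 entries with these symbols among the 58302 genes of an expression table and were chosen by name. Levels were given as FPKM, fragments scaled for gene length and for how many fragments each library had mapped, in 12 RNA-seq libraries of 4 pancreatic cancer lines with 3 replicates each. BxPC-3 and CFPAC-1 are parental lines from human pancreatic ductal adenocarcinoma, labelled sensitive to gemcitabine (GEM) and epithelial in morphology. CFPAC-1 is known to come from a patient with cystic fibrosis and to carry a mutant CFTR. GEM-resistant lines, BxPC-3-GR from the first and CFPAC-1-GR from the second, were raised in rising concentrations of GEM, and the last concentration was higher for BxPC-3-GR. BxPC-3-GR is labelled mesenchymal in morphology and CFPAC-1-GR epithelial. The labels name the same culture medium for every line, and the paper's methods name another medium for CFPAC-1. Whether a resistant line was grown from a single cell, and whether replicates were separate cultures, is not given in the sources used here. The p-values below therefore measure only the spread between these libraries, which may be technical.

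Duct cells of the pancreas secrete a fluid rich in bicarbonate. Chloride enters across the basolateral membrane through the cotransporter SLC12A2 and bicarbonate through SLC4A4, while carbonic anhydrases make bicarbonate within the cell. At the apical membrane, CFTR and the calcium-activated channel ANO1 let anions out, and exchangers such as SLC26A6 trade chloride for bicarbonate. SCNN1A is the alpha subunit of the epithelial sodium channel. CFTR is opened by protein kinase A after a rise in cyclic AMP, and its loss of function causes cystic fibrosis.

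The ductal origin was checked with markers. KRT19, KRT7, EPCAM, CDH1 and SOX9, 5 of 5 markers of ductal epithelium, had a mean of at least 1 FPKM in each of the 4 lines. Their summed FPKM lay between 726 and 787 in BxPC-3, between 804 and 869 in BxPC-3-GR, between 1840 and 2130 in CFPAC-1 and between 809 and 927 in CFPAC-1-GR. None of 4 acinar, 3 endocrine and 2 endothelial markers reached a mean of 1 FPKM in any line, and INS and GCG, hormones of endocrine cells, were listed at 0 in all 12 libraries. Of 3 leukocyte markers, PTPRC was listed at 0 in all 12 libraries and CD3E was at most 0.0968 FPKM, while CD68, a lysosomal protein, lay between 29.3 and 36.9 FPKM in CFPAC-1, between 9.83 and 12 in CFPAC-1-GR, between 2.79 and 3.94 in BxPC-3 and between 0.909 and 1.25 in BxPC-3-GR. The summed FPKM of 5 fibroblast markers was between 0.746 and 0.901 in BxPC-3 and between 3.23 and 4.12 in CFPAC-1-GR, where COL1A1 was between 2.68 and 3.32 FPKM. The part of these markers in the results below was not tested. CFTR itself, which normal ducts express, was near 0 in 3 of the 4 lines.

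The proximal sequences upstream of CFTR and SLC12A2 are shown because these genes were the members called higher in BxPC-3-GR at the base of chloride secretion, an exit channel and an entry cotransporter. They are the 250 bases before the RefSeq start on GRCh38.p14, both on the plus strand. The CFTR sequence lies at chr7:117479775-117480024 and the SLC12A2 sequence at chr5:128083516-128083765. Capitals mark the motifs found.
CFTR: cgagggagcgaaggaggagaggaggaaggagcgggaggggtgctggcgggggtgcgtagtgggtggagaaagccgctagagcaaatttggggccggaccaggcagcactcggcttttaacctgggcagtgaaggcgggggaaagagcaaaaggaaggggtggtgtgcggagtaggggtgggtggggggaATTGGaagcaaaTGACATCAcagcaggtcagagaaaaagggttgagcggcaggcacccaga
SLC12A2: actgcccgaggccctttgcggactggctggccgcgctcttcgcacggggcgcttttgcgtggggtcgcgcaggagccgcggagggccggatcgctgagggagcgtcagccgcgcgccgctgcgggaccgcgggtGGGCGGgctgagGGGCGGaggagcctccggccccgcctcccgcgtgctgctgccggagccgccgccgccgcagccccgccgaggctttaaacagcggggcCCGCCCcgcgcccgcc
In CFTR the capitals are ATTGG, the motif CCAAT on the reverse strand, at bases -61 to -57 from the start, and TGACATCA, a match to the cyclic AMP response element-like TGACNTCA, at -49 to -42. In SLC12A2 they are the GC box GGGCGG at -116 to -111 and -104 to -99 and its reverse CCGCCC at -16 to -11. Neither sequence held TATAAA or the AP-1 motif TGANTCA on either strand. Of 35116 RefSeq promoters of the same length, 6.87% held TGACNTCA, 32% held CCAAT, 42.6% held GGGCGG, 10.7% held TATAAA and 6.57% held TGANTCA. The sequences also differed in base composition. GC content was 61.2% with 11 CpG for CFTR and 79.6% with 40 CpG for SLC12A2, against medians of 58.0% and 11 over all promoters. A match is a description of letters and not of a site in use, and no binding or methylation was measured. The RefSeq start of CFTR lay inside the locus of the gene table, which starts further upstream at 117465784.

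Depth set the limit for the low members. The step between low FPKM values implied between 12600000 and 25200000 mapped fragments per library. The parental CFPAC-1 libraries stood apart from the other 9 in base composition. The log2 fold change (log2FC) of all genes tested had a Spearman correlation with GC content of -0.777 for CFPAC-1-GR against CFPAC-1 and 0.628 for CFPAC-1 against BxPC-3, but 0.0388 for BxPC-3-GR against BxPC-3 and -0.0189 between the resistant lines. These correlations are across genes, which are not independent replicates. Values after a spline correction for GC content and length are therefore given beside results that use CFPAC-1. Each comparison used limma on log2(FPKM + 1). A gene entered the test where its mean over the libraries fitted reached 1 FPKM, and a gene was called at a Benjamini-Hochberg adjusted p below 0.05 with an absolute log2FC above 1. Members under that minimum were tested on log2(FPKM + 0.1) with a minimum mean of 0.1 FPKM, here called the low-value test. Both scales understate the fold of low genes. Groups without overlap were common, at 66.1% of all genes tested in BxPC-3-GR against BxPC-3 and 82.1% in CFPAC-1-GR against CFPAC-1. With 3 libraries against 3, an exact permutation test cannot give a 2-sided p below 0.1.

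CFTR was the member with the largest ratio between a resistant line and its parental line. In BxPC-3-GR, the level of this apical chloride and bicarbonate channel was 1.42, 1.16 and 1.56 FPKM in replicates 1, 2 and 3. In BxPC-3 it was 0.00557, 0 and 0.0113 FPKM. All BxPC-3-GR libraries lay above all BxPC-3 libraries, and the means were 1.38 ± 0.206 and 0.00563 ± 0.00567 FPKM (SD, n = 3). In fragments implied by the step of low values, BxPC-3-GR held 369, 258 and 401 and BxPC-3 held 1, 0 and 2. Corrected for depth, the ratio was 259 with a 95% interval from 88.3 to 1260, which covers counting error only. The mean over the 6 libraries was 0.692 FPKM, so CFTR missed the minimum of the first test. The low-value test, which CFTR entered only through its level in BxPC-3-GR, gave a log2FC of 3.80 (SE 0.124, limma adjusted p = 5.12e-05). In bulk RNA, a larger share of cells with the transcript and more transcript per cell cannot be told apart.

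CFTR remained near 0 in both CFPAC-1 lines. It was 0.00996, 0.0307 and 0.0302 FPKM in CFPAC-1 and 0.0266, 0.0339 and 0.00623 FPKM in CFPAC-1-GR. The ranges overlapped, and the implied fragments were 10 in CFPAC-1 against 13 in CFPAC-1-GR, with a depth-corrected ratio of 1.07 and a 95% counting interval from 0.434 to 2.73. CFTR reached neither minimum in this comparison (mean 0.0229 FPKM), and a difference within that interval was not detectable at this depth. Between the resistant lines, CFTR was 62.0-fold higher in BxPC-3-GR by mean FPKM. CFTR entered the low-value tests given next only through its level in BxPC-3-GR, so their p-values are a description. Its log2FC in the low-value test was -3.59 for CFPAC-1-GR against BxPC-3-GR (SE 0.15, limma adjusted p = 2.35e-05). The response of CFTR differed between the lines by -3.82 on the log2 scale, taken as CFPAC-1-GR minus BxPC-3-GR (SE 0.184, limma adjusted p = 1.80e-07). It was -5.29 after the correction, which also shifts values near 0, such as those of CFTR in both CFPAC-1 lines. With 10 against 13 implied fragments there, the larger corrected value does not show a fall of CFTR in CFPAC-1-GR.

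**Figure D1:**
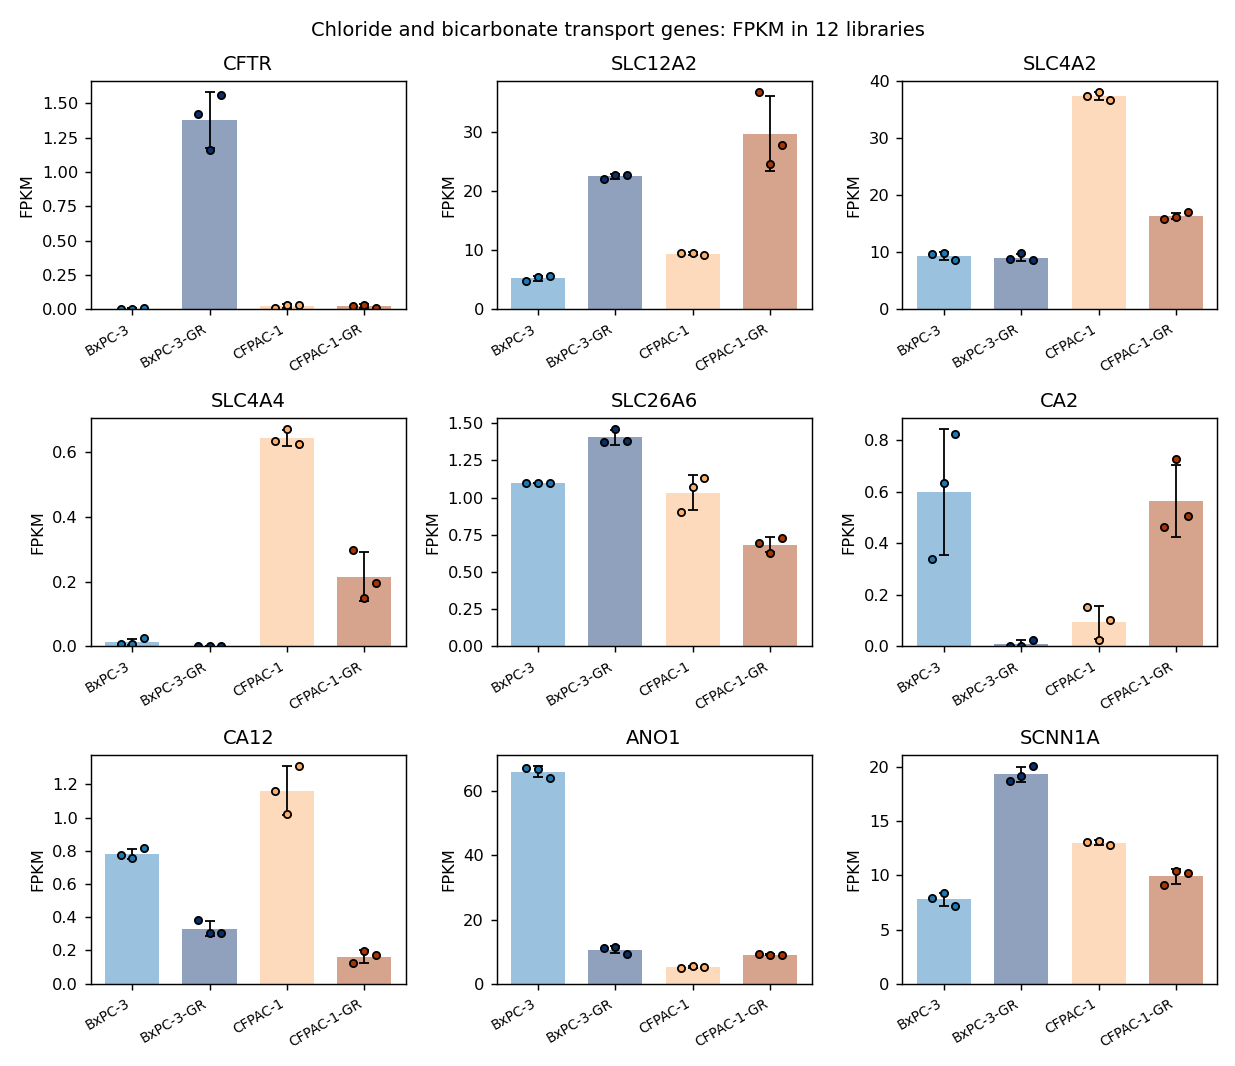
FPKM of the 9 members by line. Bars are means, error bars SD and points the 3 libraries of each line, with a separate linear axis from 0 in each panel. CFTR stands above 1 FPKM in the 3 BxPC-3-GR libraries and below 0.04 FPKM in the other 9, and SLC12A2 is higher in both resistant lines than in their parental lines.

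ANO1, the calcium-activated chloride channel of the apical membrane, moved the other way in BxPC-3-GR. It was 67.3, 66.9 and 64.1 FPKM in BxPC-3 and 11.1, 11.4 and 9.34 FPKM in BxPC-3-GR. The groups did not overlap, and the mean was 6.22-fold lower in BxPC-3-GR (66.1 ± 1.76 against 10.6 ± 1.12 FPKM, SD, n = 3). ANO1 fell by 2.53 on the log2 scale (SE 0.0812, limma adjusted p = 5.54e-06). In CFPAC-1 the level was 5.02, 5.48 and 5.12 FPKM, and in CFPAC-1-GR it was 9.34, 9.03 and 8.84 FPKM. All CFPAC-1-GR libraries were higher, yet the log2FC of 0.70 (SE 0.0648, limma adjusted p = 5.82e-05) stayed under the fold criterion, also after the GC and length correction (0.87). The difference of response was 3.23 (SE 0.10, limma adjusted p = 1.94e-09) and 3.41 after the correction.

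The share of CFTR in the summed FPKM of CFTR and ANO1 shows both changes together. It was 0.00827%, 0% and 0.0177% in BxPC-3 and 11.3%, 9.19% and 14.3% in BxPC-3-GR. In CFPAC-1 it ranged from 0.198% to 0.586%, and CFPAC-1-GR libraries lay between 0.0704% and 0.374%. ANO1 thus exceeded CFTR in all 12 libraries, by the smallest ratio in BxPC-3-GR. Of ANO1 exons, 10.729% are shared with an antisense gene on the opposite strand, and whether the counting used strand is not given in the sources used here.

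**Figure D2:**
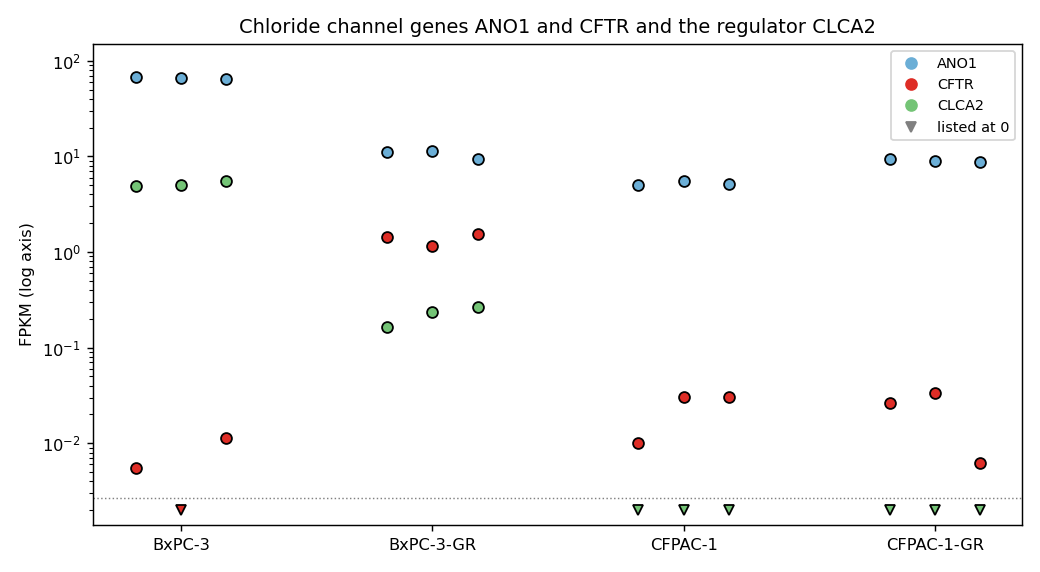
FPKM of the channel genes ANO1 and CFTR and of CLCA2, a regulator of chloride conductance, in each library, on a log axis. Triangles under the dotted line mark values listed at 0. CFTR lies between 1.16 and 1.56 FPKM in BxPC-3-GR, where ANO1 and CLCA2 are lower than in BxPC-3.

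SLC12A2, the sodium, potassium and chloride cotransporter that loads duct cells with chloride, was the only member called higher in both resistant lines. It was 4.78, 5.41 and 5.59 FPKM in BxPC-3 and 22.0, 22.7 and 22.7 FPKM in BxPC-3-GR. The groups did not overlap, and SLC12A2 rose with a ratio of means of 4.27 and a log2FC of 1.91 (SE 0.0644, limma adjusted p = 6.63e-06). In CFPAC-1 it was 9.47, 9.57 and 9.13 FPKM and in CFPAC-1-GR 36.7, 24.6 and 27.7 FPKM. Replicate 1 of CFPAC-1-GR was the highest of the 12 libraries. The ratio of means was 3.16 and the log2FC 1.54 (SE 0.141, limma adjusted p = 5.53e-05). After the GC and length correction the log2FC in the CFPAC-1 lines was 0.33 (limma adjusted p = 0.035), so that the call was lost. GC content was 41.2% over the transcript of SLC12A2. Between the lines, the responses of SLC12A2 differed by -0.37 (SE 0.165, limma adjusted p = 0.0623, 95% interval -0.73 to -0.0030) and reached -1.52 after the correction, where it was called.

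Among the bicarbonate transporters, SLC4A2, the chloride and bicarbonate exchanger of the basolateral membrane, was the most abundant. It was 9.77, 9.81 and 8.61 FPKM in BxPC-3 and 8.76, 9.80 and 8.64 FPKM in BxPC-3-GR. These ranges overlapped, and the log2FC was -0.05 (limma adjusted p = 0.622, 95% interval -0.23 to 0.14). In CFPAC-1 it was 37.4, 38.1 and 36.7 FPKM and in CFPAC-1-GR 15.9, 16.2 and 17.0 FPKM. Both CFPAC-1 lines lay above both BxPC-3 lines. SLC4A2 fell by 1.14 on the log2 scale in CFPAC-1-GR (SE 0.0620, limma adjusted p = 7.97e-06), a call that was lost after the GC and length correction (-0.52, adjusted p = 0.000291). Its transcript has a GC content of 61.3%. The response of SLC4A2 differed between the lines by -1.10 (limma adjusted p = 9.58e-07) and by -0.38 after the correction. Exons of SLC4A2 overlap those of an antisense gene (9.407% of its length) and of CDK5 (4.361%) on the opposite strand.

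SLC4A4, the sodium and bicarbonate cotransporter of the basolateral membrane, was found mainly in the CFPAC-1 lines. It was 0.634, 0.670 and 0.625 FPKM in CFPAC-1 and 0.297, 0.149 and 0.197 FPKM in CFPAC-1-GR. In BxPC-3 it was 0.00838, 0.00742 and 0.0256 FPKM, and in BxPC-3-GR 0.00289, 0 and 0 FPKM. The order of the means was CFPAC-1, CFPAC-1-GR, BxPC-3 and BxPC-3-GR, with no overlap between neighbours, although the last step rests on 10 against 1 implied fragments. SLC4A4 fell by 1.27 in CFPAC-1-GR in the low-value test (SE 0.185, limma adjusted p = 0.00179), and by 2.94 after the correction. Its GC content is 39.3%. Between the parental lines it was higher in CFPAC-1, with a ratio of 47.6 in implied fragments (395 against 10, 95% counting interval 25.6 to 100.0) and a log2FC of 2.71 in the low-value test, which it entered only through CFPAC-1 (limma adjusted p = 5.84e-06), or 4.30 after the correction. SLC4A4 was not tested between the BxPC-3 lines (mean 0.00738 FPKM).

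SLC26A6, the apical chloride and bicarbonate exchanger, stayed within a narrow range. It was 1.10 FPKM in each of the 3 BxPC-3 libraries and 1.37, 1.46 and 1.38 FPKM in BxPC-3-GR. The BxPC-3-GR libraries were all higher, with a log2FC of 0.19 (SE 0.0448, limma adjusted p = 0.0109), which was not called. It was 0.901, 1.07 and 1.13 FPKM in CFPAC-1 and 0.697, 0.626 and 0.726 FPKM in CFPAC-1-GR. The CFPAC-1-GR libraries were all lower, with a log2FC of -0.53 in the low-value test (limma adjusted p = 0.00981) that was -0.08 after the correction (adjusted p = 0.595). For SLC26A6 the responses differed by -0.46 (limma adjusted p = 0.000212) and by 0.15 after the correction.

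The cytosolic carbonic anhydrase CA2, which supplies bicarbonate in duct cells, moved in opposite directions in the resistant lines. It was 0.339, 0.634 and 0.824 FPKM in BxPC-3 and 0, 0 and 0.0264 FPKM in BxPC-3-GR. Implied fragments were 18, 38 and 43 against 0, 0 and 2, a ratio of 65.6 with a 95% counting interval from 17.7 to 549. The low-value test, which CA2 entered only through its level in BxPC-3, gave a log2FC of -2.63 (SE 0.297, limma adjusted p = 0.00177). In CFPAC-1 it was 0.152, 0.026 and 0.102 FPKM and in CFPAC-1-GR 0.465, 0.726 and 0.505 FPKM. The groups did not overlap, and CA2 rose by 1.82 in the low-value test (SE 0.298, limma adjusted p = 0.00287), or 1.19 after the correction, where it was still called. Between the lines, the responses of CA2 differed by 4.45 (SE 0.444, limma adjusted p = 1.40e-05), and by 3.82 after the correction.

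CA12, a carbonic anhydrase with its active site outside the cell, was lower in both resistant lines. It was 0.774, 0.755 and 0.817 FPKM in BxPC-3 and 0.381, 0.305 and 0.304 FPKM in BxPC-3-GR. CA12 fell by 1.04 there in the low-value test (SE 0.0957, limma adjusted p = 0.000913), a call just past the fold criterion that was lost without BxPC-3-GR replicate 3 and with median-of-ratios scaling (both -0.998). It was 1.16, 1.02 and 1.31 FPKM in CFPAC-1 and 0.122, 0.195 and 0.171 FPKM in CFPAC-1-GR, a ratio of means of 7.14. CA12 fell by 2.27 in CFPAC-1-GR (SE 0.153, limma adjusted p = 0.000123) and by 2.63 after the correction. The groups overlapped in neither line. With a pseudocount of 1, the log2FC of CA12, CA2 and SLC4A4 in these comparisons stayed under the fold criterion.

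CA9, a hypoxia-induced carbonic anhydrase outside the 9 members, carried most of the carbonic anhydrase signal in BxPC-3-GR. The summed FPKM of CA9, CA2 and CA12 lay between 1.43 and 1.88 in BxPC-3 and between 20.6 and 24.9 in BxPC-3-GR, of which CA9 made up 98.1% to 98.7%. The sum lay between 5.37 and 5.63 in CFPAC-1 and between 1.36 and 1.81 in CFPAC-1-GR. The sum was thus higher in BxPC-3-GR and lower in CFPAC-1-GR than in the parental lines, in each of the 3 libraries. It is not corrected for GC content and length, and the log2FC of CA9 in CFPAC-1-GR went from -1.54 to -0.62 with that correction. Other carbonic anhydrases are outside the sum. From CFPAC-1 to CFPAC-1-GR, mean CA11 fell from 3.33 to 1.89 FPKM, while CA13 rose from 0.449 to 0.989 and CA5B from 0.331 to 0.818.

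SCNN1A, the alpha subunit of the epithelial sodium channel, was highest in BxPC-3-GR. It was 7.89, 8.36 and 7.15 FPKM in BxPC-3 and 18.7, 19.2 and 20.1 FPKM in BxPC-3-GR. The groups did not overlap, and SCNN1A rose with a ratio of means of 2.48 and a log2FC of 1.21 (SE 0.0678, limma adjusted p = 4.04e-05). A limma test against an absolute log2FC of 1 did not call SCNN1A (adjusted p = 0.253). In CFPAC-1 it was 13.1, 13.2 and 12.8 FPKM and in CFPAC-1-GR 9.12, 10.4 and 10.2 FPKM. The log2FC there was -0.37 (SE 0.0712, limma adjusted p = 0.0024), which was not called and turned to 0.12 after the correction (adjusted p = 0.112). The difference of response was -1.58 (limma adjusted p = 7.86e-08) and -1.05 after the correction. The beta and gamma subunits of the channel, SCNN1B and SCNN1G, were low in every line. SCNN1B was at most 0.0169 FPKM in the BxPC-3 lines and lay between 0.164 and 0.29 FPKM in the CFPAC-1 lines, and SCNN1G was at most 0.0821 FPKM in any library. Exons of SCNN1A share 7.182% of their length with LTBR on the opposite strand.

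Counted over the members, 5 were tested in BxPC-3-GR, of which 2 were called higher and 1 lower. Over all 11710 genes, 7.76% were called, 4.14% higher and 3.62% lower. In the low-value test 8 members were tested, of which 3 were called higher (CFTR, SLC12A2 and SCNN1A) and 3 lower (ANO1, CA2 and CA12). There, 13.5% of 19698 genes were called, 7.5% higher and 6.03% lower. In CFPAC-1-GR, 1 of 4 members tested was called higher and 1 lower, against 32.2% of 12051 genes called, 20.5% higher and 11.7% lower. After the GC and length correction, 0 of these 4 were called by limma, against 8.66% of 12030 genes. An unadjusted and an adjusted p below 0.05 were each reached by 3 of the 4, and 60.2% of all genes had an adjusted p below 0.05. In the low-value test 2 of 8 members were called higher in CFPAC-1-GR (SLC12A2 and CA2) and 3 lower (SLC4A2, SLC4A4 and CA12). There, 39.6% of 21003 genes were called, 28.3% higher and 11.3% lower. With the correction this test called 1 member higher (CA2) and 2 lower (SLC4A4 and CA12), against 18.1% of 20920 genes. Low members such as CFTR passed the minimum only through the line where they were high, so these counts are a description.

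**Figure D3:**
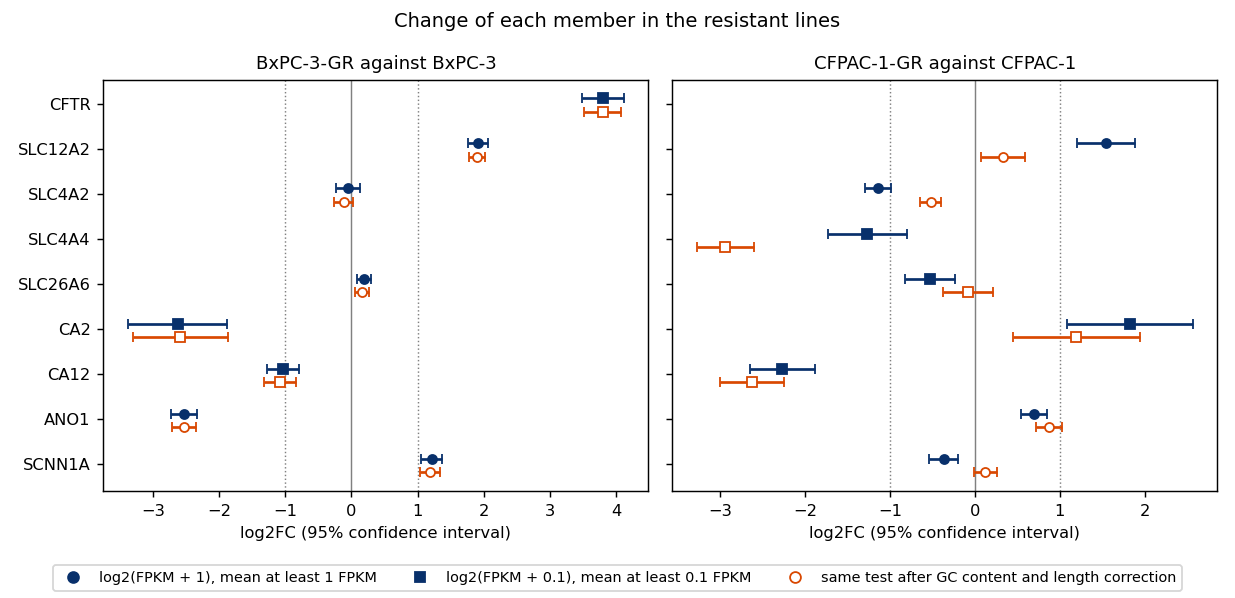
Log2FC of the members in BxPC-3-GR (left) and CFPAC-1-GR (right), each against its parental line, with 95% confidence intervals from limma. Circles are from the test on log2(FPKM + 1) and squares from the low-value test, filled without and open with the GC and length correction, and dotted lines mark a log2FC of -1 and 1. The filled and open points lie close together in BxPC-3-GR, while SLC12A2 moves from 1.54 to 0.33 in CFPAC-1-GR.

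The parental lines also differed from each other in several members. ANO1 was 12.7-fold lower in CFPAC-1 than in BxPC-3 by mean FPKM, with a log2FC of -3.43 (limma adjusted p = 8.11e-08) and of -3.75 after the correction. SLC4A2 was 3.98-fold higher in CFPAC-1, with a log2FC of 1.89 (limma adjusted p = 6.08e-07) and of 1.19 after the correction. Of 5 members tested, these 2 were called, against 44.5% of 11842 genes (51.5% of 20411 in the low-value test). For SCNN1A the log2FC was 0.68 and for SLC12A2 0.73, and the correction brought them to 0.08 and 1.97, the last of which was called. CA2 was lower in CFPAC-1 in the low-value test (-1.85, limma adjusted p = 0.00602, corrected -1.496), and CA12 differed by 0.51 (limma adjusted p = 0.00703, corrected 0.52) without a call.

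Between the resistant lines, 0 of 5 members were called by limma in the first test, against 17.1% of 12330 genes. Of these members, 3 had an adjusted and 4 an unadjusted p below 0.05. Over all genes tested, 65.3% had an adjusted p below 0.05. SCNN1A had a log2FC of -0.90, SLC4A2 of 0.79 and SLC26A6 of -0.51 for CFPAC-1-GR against BxPC-3-GR. ANO1, which differed 12.7-fold between the parental lines, had a log2FC of -0.20 (limma adjusted p = 0.0748, 95% interval -0.41 to 0.0017), with ranges that overlapped. SLC12A2 had a log2FC of 0.37 (limma adjusted p = 0.0564, 95% interval 0.029 to 0.70). In the low-value test, CFTR was lower in CFPAC-1-GR and CA2 (log2FC 2.60) and SLC4A4 (1.61) were higher, 3 of 9 members against 28.4% of 21543 genes. Each of these 3 entered that test only through the line where it was higher. The difference of response was called for ANO1, SLC4A2 and SCNN1A of 5 members tested, against 38% of 12210 genes. In the low-value test, where 43.2% of 21194 genes were called, it was also called for CFTR, CA2, CA12 and SLC4A4.

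The other genes of the pathway were read from 11 lists with 96 genes. In BxPC-3-GR, 54 were tested, 4 were called higher and 2 lower, which is 11.1% against 7.76% of all genes tested. Their median log2FC was 0.17, against -0.05 over all genes tested. CA9 rose with a log2FC of 4.26 (SE 0.104, limma adjusted p = 2.74e-06), from between 0.076 and 0.322 FPKM to between 20.2 and 24.6 FPKM. The borate and proton transporter SLC4A11 (1.24), the adenylyl cyclase ADCY6 (1.11), which makes the cyclic AMP that opens CFTR, and the potassium and chloride cotransporter SLC12A7 (1.04) also rose on the log2 scale. CLCA2 fell by 2.33 and the sulfate transporter SLC26A2 by 1.02. CA9 and ADCY6 reached the minimum mean only through BxPC-3-GR, and CLCA2 only through BxPC-3, so their p-values are a description. The calls of SLC12A7 (0.98) and SLC26A2 (-0.996) were lost after the GC and length correction. None of 7 sodium channel genes tested was called, although all 7 had a limma adjusted p below 0.05, and none of 7 genes of CFTR folding and trafficking was called, of which 5 had an adjusted and 6 an unadjusted p below 0.05. Over all genes tested, 57.7% had an adjusted p below 0.05.

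In CFPAC-1-GR, 61 pathway genes were tested, 12 were called higher and 12 lower, which is 39.3% against 32.2% of all genes tested. Their median log2FC was -0.25 against 0.13 over all genes. After the GC and length correction, 5 were called higher and 2 lower, against 8.66% of all genes called. The chaperone HSP90AA1 (2.72, corrected 2.13) and the epithelial transcription factor EHF (2.46, corrected 1.60) rose on the log2 scale with and without the correction. The water channel AQP5 fell by 2.64, from between 285 and 327 FPKM to between 43.4 and 50.7 FPKM, and by 1.60 after the correction. The sodium and proton exchanger SLC9A3 fell by 2.15, from between 3.48 and 4.16 FPKM to between 0.083 and 0.116 FPKM, and by 1.48 after the correction. The increases of SLC26A2 (1.83) and of GOPC (1.63), a Golgi protein that binds CFTR, and the decrease of CA9 (-1.54) came under the fold criterion after the correction, at 0.56, 0.52 and -0.62. SLC9A3 and CA9 reached the minimum mean only through CFPAC-1, and SLC26A2 only through CFPAC-1-GR.

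**Figure D4:**
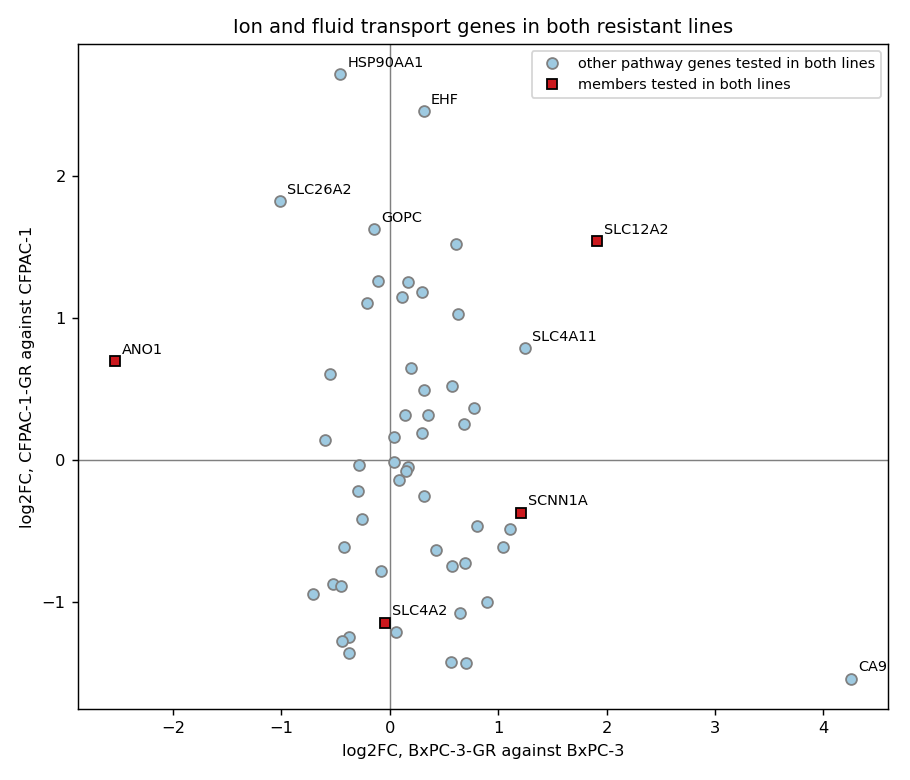
Log2FC in BxPC-3-GR against BxPC-3 (horizontal) and in CFPAC-1-GR against CFPAC-1 (vertical) for 51 pathway genes and 4 members tested in both lines, without the GC and length correction. Each point is a gene, and SLC12A2 is the member in the upper right, at 1.91 and 1.54, while CA9 lies at the lower right, at 4.26 and -1.54.

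Between the parental lines, 18 pathway genes were called higher in CFPAC-1 and 16 lower, of 60 tested, against 44.5% of all genes called. After the correction, 9 were called higher and 15 lower, against 26.6% of all genes. AQP5 was between 285 and 327 FPKM in CFPAC-1 and at most 0.0672 FPKM in BxPC-3 (log2FC 8.2, corrected 7.03). SLC9A3 was listed at 0 in all 6 libraries of the BxPC-3 lines. The serine protease PRSS8, which activates the epithelial sodium channel, was higher in CFPAC-1 (log2FC 2.27, corrected 1.21). The water channel AQP3 (-4.37, corrected -5.20), HSP90AA1 (-2.90, corrected -2.39) and CLCA2 (-2.61, corrected -1.56), listed at 0 in all 6 libraries of the CFPAC-1 lines, were lower. AQP5 and SLC9A3 reached the minimum mean here only through CFPAC-1, and CLCA2 only through BxPC-3.

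The genes whose levels were most like CFTR over the 12 libraries were ranked by the Pearson correlation of log2(FPKM + 1) among 12210 genes. They were B4GALNT3 (r = 0.993), FAM160A2 (0.993), IGSF1 (0.992), VGLL4 (0.991) and RRP8 (0.991). The 12 libraries fall into 4 lines, and the correlations rest on the contrast of BxPC-3-GR with the other lines. In BxPC-3-GR the mean FPKM was 7.86 for B4GALNT3, 72.6 for FAM160A2, 9.93 for IGSF1, 6.13 for VGLL4 and 16.5 for RRP8. In BxPC-3 it was 0.581, 2.56, 0.0333, 3.35 and 1.67 FPKM in the same order of genes.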

How the data were processed

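The 2 parental lines and their resistant lines were sequenced with 3 replicates each. FPKM values of 58302 genes were deposited by the authors as a single table, and the paper's methods name a GRCh38 reference and DESeq2 for the authors' own comparisons. The submitters' processing notes name Trimmomatic 0.27, FastQC 0.10.1 and TopHat2 2.0.8, without their roles, and also hg19. Whole counts were not used here. FPKM divides by gene length and mapped fragments, so a few abundant genes move all others. The 10 most abundant took 12.0% to 13.8% of summed FPKM in CFPAC-1, 23.2% to 24.6% in CFPAC-1-GR and 33.4% to 36.3% in the BxPC-3 lines. The share thus differed between the groups in each comparison that used a CFPAC-1 line.

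Comparisons were made within each pair of resistant and parental line, between the parental lines, between the resistant lines, and of both responses by an interaction over 12 libraries, with limma 3.58.1 (lmFit, eBayes) in R 4.3.3 on log2(FPKM + 1). The minimum mean was 1 FPKM, and the low-value test used a pseudocount of 0.1 and a minimum mean of 0.1 FPKM. GENCODE release 29 gave position, length and GC content for 58039 genes, and promoter sequences from RefSeq on GRCh38.p14, where 7 of the 9 members had an entry. Implied fragments are FPKM divided by the value of 1 fragment. Between 56.8% and 68.1% of low values over all genes were whole multiples of it within 0.05, and all low values of CFTR, CA2 and SLC4A4 within 0.15 fragments. Spearman correlations between libraries of 1 line lay between 0.965 and 0.981.

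The members and lists were chosen with earlier results of these data known. Genes named were the 9 members, up to 4 called pathway genes in each direction without overlap of the groups in each resistant line and up to 3 between the parental lines, and the 5 genes most like CFTR. A gene among the called pathway genes is not reported here. CA9, CA2 and CA12 were summed after their values were seen. Alternatives were other pseudocounts, minima and scalings, the replicate number as a block, the correction for GC content and length (splines with 5 degrees of freedom), protein-coding genes only, a prior variance with a trend, a test against an absolute log2FC of 1, all 12 libraries in 1 fit, and each library left out. Those of the low-value test were added after the values were seen. On simulated data, between 92% and 95.9% of genes changed by a log2FC of 1.5 were recovered, with 0 to 4 false calls. The simulation ran only the first test, changed only more abundant genes and held no trend with GC content. It therefore could not test the low-value test or the effect of the trend in CFPAC-1. Tables and figures were made in Python 3.11.15 with pandas 2.3.3, scipy 1.17.1 and matplotlib 3.10.9.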

Additional observations from a re-analysis of the deposited data

Results flagged for a closer look

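The responses of the resistant lines differed, by the interaction term of limma, for 3 of 5 members in the first test, where 38% of all genes were called. On the log2 scale, as CFPAC-1-GR minus BxPC-3-GR, the differences were 3.23 for ANO1, -1.58 for SCNN1A and -1.10 for SLC4A2. In the low-value test, where 43.2% of all genes were called, the members that the first test did not hold differed by 4.45 for CA2, -3.82 for CFTR, -1.23 for CA12 and -1.10 for SLC4A4. CFTR was near 0 in both CFPAC-1 lines and SLC4A4 in both BxPC-3 lines, so that their differences come from the other line. Both genes entered the test only through lines where they were higher. After the GC and length correction the difference for SLC4A2 was -0.38 and no longer called, and that for SLC4A4 was -2.75.

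Of the pathway genes named, the responses also differed for CA9 (-5.79, corrected -4.87), HSP90AA1 (3.18), AQP5 (-2.94), SLC26A2 (2.84), CLCA2 (2.33), EHF (2.15), PRSS8 (-1.89), GOPC (1.77), SLC12A7 (-1.65) and ADCY6 (-1.59), and in the low-value test for SLC9A3 (-4.35). CLCA2 was listed at 0 in both CFPAC-1 lines, and SLC9A3 in both BxPC-3 lines. After the correction, PRSS8 (-0.93), GOPC (0.65) and SLC12A7 (-0.89) were no longer called. The part of base composition in these differences was not tested beyond that correction.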

How the results depend on the processing

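Of 1076 alternative values for the members and named pathway genes, 1024 kept their direction and their side of the criteria, 40 lost the call, 6 gained it and 6 turned sign, and the causes were not tested unless stated. Signs turned only for values that were not called: SLC4A2 in BxPC-3-GR with upper-quartile scaling (0.0044), SCNN1A in CFPAC-1-GR (0.12) and the difference of response of SLC26A6 (0.15) after the GC and length correction with or without the replicate block, and SLC26A6 between the parental lines with median-of-ratios scaling (0.021). The log2FC of CFTR in BxPC-3-GR lay between 1.24 with a pseudocount of 1 and 3.91 over 12 alternatives, each of which it entered only through BxPC-3-GR. The low-value test has more genes and a smaller pseudocount by construction. It called 6 members, 12 pathway genes and 2665 genes in BxPC-3-GR, 5 members and 8320 genes in CFPAC-1-GR, 4 members and 10503 genes between the parental lines, 3 members, 28 pathway genes and 6128 genes between the resistant lines, and 7 members, 45 pathway genes and 9150 genes for the difference of response. A pseudocount of 0.1 alone called 1429 genes in BxPC-3-GR. Without a minimum, or with one of 0.1 FPKM, 1 member was called between the resistant lines and 5 for the difference of response. Of all genes, these settings called 7.86% and 11.4% between the resistant lines and 15.1% and 23.8% for the difference. The GC and length correction, without and with the replicate block, left 0 members, 7 pathway genes and 1042 or 1046 genes (8.66% or 8.69%) in CFPAC-1-GR. It left 3143 or 3140 genes (26.6%) between the parental lines, and 12 pathway genes and 2243 or 2239 genes (18.4%) for the difference of response. A test against an absolute log2FC of 1 called 1 member higher and 1 lower, 3 pathway genes and 380 genes (3.25%) in BxPC-3-GR, where SCNN1A lost its call. In CFPAC-1-GR it called 1 member, 15 pathway genes and 2059 genes (17.1%). It called 1265 genes between the resistant lines, and 14 pathway genes and 2631 genes for the difference of response. Median-of-ratios scaling called 1 member (SCNN1A) between the resistant lines, against 17.5% of all genes. It moved the median log2FC of all genes by -0.235 in CFPAC-1-GR, where increases were 43.3% of calls in place of 63.7%, by -0.271 for the difference of response (44.0% in place of 62.1%), by -0.141 between the resistant lines (48.5% in place of 60.3%) and by 0.105 between the parental lines. With each library left out in turn, calls covered 3 members in BxPC-3-GR, 2 in CFPAC-1-GR, 2 between the parental lines, 0 between the resistant lines and 3 for the difference of response. In the low-value test, CA12 in BxPC-3-GR ranged from -1.12 to -0.998 and the difference for SLC4A4 from -1.28 to -0.944, and these calls were lost without BxPC-3-GR replicate 3 and without CFPAC-1-GR replicate 2. SLC26A2 in BxPC-3-GR lost its call without BxPC-3 replicate 3 (-0.98) or without BxPC-3-GR replicate 2 (-0.997). Whether the replicate numbers pair the libraries is not given in the sources used here. Correlations of same-numbered libraries, after taking out the mean of each line, lay between -0.134 and 0.09, which cannot settle it. The replicate block gave 908 calls for BxPC-3-GR and 3883 for the other resistant line, changed no count of members, and 4, 0, 2 and 5 of 6 libraries in the first 4 comparisons correlated best with their own number, which is a hint from the data and not from the design. Depth limits the low members, since CFTR rested on at most 6 implied fragments per library outside BxPC-3-GR.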

Other observations

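Transcription factors linked to CFTR were described after their values were seen. The pioneer factors FOXA1 and FOXA2 and the epithelial factor KLF5 had higher values in BxPC-3-GR than in BxPC-3, with log2FC of 0.81, 0.65 and 0.77, none of which was called. FOXA1 and FOXA2 responded differently in the lines, by -1.27 and -1.73 on the log2 scale (limma adjusted p = 8.04e-07 and 1.35e-07), and by -1.22 and -1.001 after the GC and length correction, the last just past the fold criterion.

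Among the receptors that start duct secretion, SCTR, the secretin receptor, was listed at 0 in all 12 libraries. The nucleotide receptor P2RY2, which raises calcium and so opens ANO1, was between 9.87 and 10.8 FPKM in BxPC-3 and between 7.43 and 7.92 FPKM in BxPC-3-GR, which was not called. It was between 8.93 and 9.98 FPKM in CFPAC-1 and between 3.18 and 3.79 FPKM in CFPAC-1-GR, a fall by 1.24 on the log2 scale (limma adjusted p = 1.45e-05). After the GC and length correction the difference was -0.47 and no longer called.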
